A study of Rattus norvegicus with 9 samples.

Results

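Egr1, Egr2 and Egr4 encode zinc finger transcription factors of the early growth response family, and Nr4a1, Nr4a2 and Nr4a3 encode orphan nuclear receptors. All 6 belong to the genes that neurons transcribe soon after calcium enters through synaptic receptors and channels. The signal reaches them through CREB at cyclic AMP response elements and through serum response factor at CArG boxes, so their mRNA in cortex is widely used as a sign of recent activity. Egr proteins bind GC-rich sites and are held back by the Nab corepressors, and Nr4a receptors bind as monomers to a site named NBRE.

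The 6 genes were taken as every probe set whose only symbol in the platform annotation is one of their names. This gave 10 probe sets for 6 genes, of 10411 genes that have a probe set with 1 symbol. The samples were prefrontal cortex of 9 untreated male Lewis rats, an inbred strain, weighing 200 to 250 g, with 1 Affymetrix array for each rat. They form 1 group with no genotype, treatment or time contrast, and each rat carries 4 behavioural values, of startle, of locomotion, of the plus maze and of sugar feeding, with no unit given. Per the labels' protocols, 20 rats were tested, and frontal areas Fr1 and Fr2 anterior to Bregma +4.0 mm were taken without the olfactory bulb 12 days after the last test, with the order of sacrifice random. The tissue held the cortical excitatory markers Slc17a7, Camk2a and Nrgn at mean log2 of 10.72 or above, while Tbr1, a transcription factor of deep cortical neurons, was below the filter on dim probe sets at 2.51. The study's title asks whether brain mRNA goes with behaviour among inbred animals, and here each relation is one across individuals. Rats were separate animals, but 1 array each cannot separate animal from array. Rats 8 and 9 stood apart from the others on the first principal component of the table, which held 49.6% of the variance, so the pairs of members and the leading relations are also given for rats 1 to 7.

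Promoters of Egr2, Egr4 and Nr4a1 are printed to show sites of those signals. Their levels went together across rats, as did that of Egr1, whose promoter was searched but is not printed. The windows run from 250 bases before to 50 bases after the start of the transcript that the RefSeq table holds (build GRCr8), 5′ to 3′. Those of Egr4 and Nr4a1 hold no CArG box. Capitals mark a CArG box and the half-site of a cyclic AMP response element, TGACG or its reverse complement CGTCA. Egr2 lies on the minus strand at chr20:21054392-21054691, Egr4 on the minus strand at chr4:119607768-119608067 and Nr4a1 on the plus strand at chr7:134259888-134260187.
Egr2: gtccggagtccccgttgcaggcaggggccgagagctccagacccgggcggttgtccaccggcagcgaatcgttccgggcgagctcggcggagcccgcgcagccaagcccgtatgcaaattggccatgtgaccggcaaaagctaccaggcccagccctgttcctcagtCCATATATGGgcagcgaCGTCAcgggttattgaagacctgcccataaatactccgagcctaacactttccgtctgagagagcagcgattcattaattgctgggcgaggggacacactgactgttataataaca
Egr4: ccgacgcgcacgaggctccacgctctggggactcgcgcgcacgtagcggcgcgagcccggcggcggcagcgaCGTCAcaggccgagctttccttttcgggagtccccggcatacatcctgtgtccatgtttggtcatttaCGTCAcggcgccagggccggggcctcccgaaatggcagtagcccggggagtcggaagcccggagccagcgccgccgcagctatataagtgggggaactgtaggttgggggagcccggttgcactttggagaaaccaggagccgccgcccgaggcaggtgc
Nr4a1: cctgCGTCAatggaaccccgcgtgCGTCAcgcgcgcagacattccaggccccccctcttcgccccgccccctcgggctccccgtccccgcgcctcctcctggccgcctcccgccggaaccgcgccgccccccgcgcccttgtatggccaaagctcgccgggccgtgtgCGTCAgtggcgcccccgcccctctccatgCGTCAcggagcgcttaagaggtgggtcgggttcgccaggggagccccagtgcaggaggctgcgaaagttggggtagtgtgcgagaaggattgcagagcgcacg

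Both strands were searched in the promoters of the 5 members that the table holds. The half-site TGACG occurred 2 times in Egr1, 1 time in Egr2, 2 times in Egr4, 4 times in Nr4a1 and 1 time in Nr4a2, and it occurred at least once in 21.2% of all 33469 promoters of the same length. A CArG box, the serum response factor site, occurred 2 times in Egr1 and 1 time in Egr2, and 1.64% of all promoters hold one. The sequence GCGNGGGCG, to which Egr proteins bind, occurred 1 time in Nr4a1, and 4.98% of all promoters hold it. The full element TGACGTCA, which contains the half-site, and the NBRE letters AAAGGTCA were in none of the 5 windows, and 1.83% and 1.43% of all promoters hold them. These are matches of letters and say nothing about binding.

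Egr1, a zinc finger factor present in cortex at rest, had a lowest log2 expression of 10.09 in rat 2, a median of 10.51 and a highest of 11.29 in rat 7. Its mean was 10.61 ± 0.40 (SD, n = 9) and its highest rat was 2.30-fold above its lowest. Rats 7, 9 and 8 held the 3 highest values, at 11.29, 11.02 and 10.95, and the next was rat 1 at 10.63.

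Egr2, also called Krox20 and known for its part in myelinating Schwann cells, ran from 4.54 in rat 2 through a median of 5.04 to 6.57 in rat 7. The mean was 5.33 ± 0.76 (SD, n = 9), a span of 4.10-fold. Rats 7, 9 and 8 were again the 3 highest, at 6.57, 6.47 and 5.71, with the next at 5.24 in rat 5. Of the probe sets kept, 98.5% had a smaller or equal SD.

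Nr4a1, also called Nur77, ran from 7.63 in rat 1 through a median of 8.44 to 9.84 in rat 7. The mean was 8.53 ± 0.67 (SD, n = 9) and the span 4.64-fold, the widest of the 6 genes. Its 3 highest rats were the same, at 9.84 in rat 7, 9.19 in rat 9 and 8.72 in rat 8, with rat 3 close behind at 8.66.

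Egr4, a family member that lacks the Nab-binding domain of the others, moved little. It ran from 7.66 in rat 2 through a median of 7.74 to 8.04 in rat 9, a span of 1.30-fold, with a mean of 7.80 ± 0.13 (SD, n = 9). Rats 9 and 7 were highest, at 8.04 and 7.97, and rat 8 lay at 7.74 among the others.

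Nr4a3, also called Nor1, ran from 4.18 in rat 1 through a median of 4.60 to 6.20 in rat 9, with a mean of 4.78 ± 0.63 (SD, n = 9). Rats 9 and 8, at 6.20 and 5.40, stood above rats 1 to 7, whose values ran from 4.18 to 4.69. Over rats 1 to 7 its SD was 0.17, against 0.63 over all 9.

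Nr4a2, also called Nurr1 and needed for midbrain dopamine neurons, stayed between 3.24 and 3.42, with a mean of 3.34 ± 0.07 (SD, n = 9). It lay just above the filter on dim probe sets, a mean log2 of 3.22. Its small differences followed the median of the dimmest 40% of probe sets on each array (r = 0.904, exact permutation p = 0.000557, n = 9). The second probe sets of Egr2, Egr4, Nr4a2 and Nr4a3 had means of 2.25, 2.54, 2.72 and 3.02, below the filter, and none of them showed the spread of the first probe set of its gene. They and Nr4a2 were therefore not used to rank rats. With 1 array per rat, neighbours in any of these orders could not be told apart by a test.

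**Figure D1:**
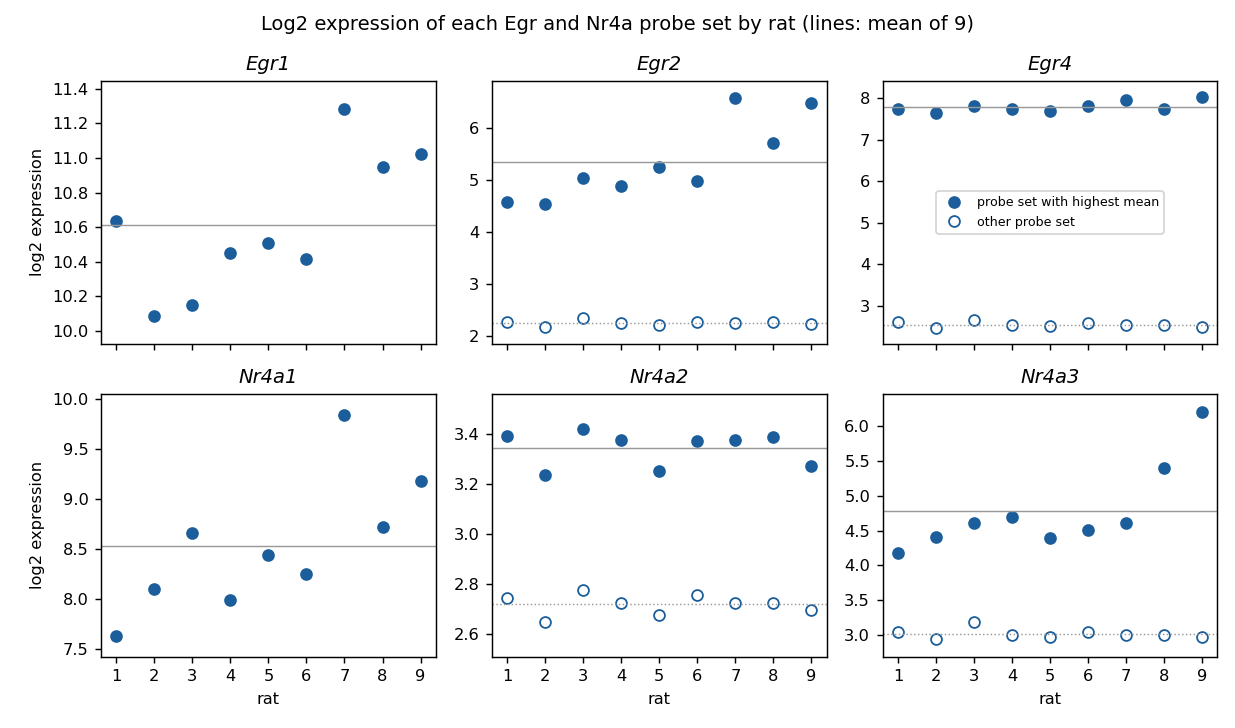
Log2 expression of every Egr and Nr4a probe set (vertical axes, each gene on its own scale) against rat number (horizontal axes), 1 point per array and lines at the mean of 9 rats. Filled points are the probe set with the highest mean of its gene and open points the other one. Egr1, Egr2 and Nr4a1 were highest in rats 7, 9 and 8, Nr4a3 in rats 9 and 8, and Nr4a2 stayed between 3.24 and 3.42.

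**Figure D2:**
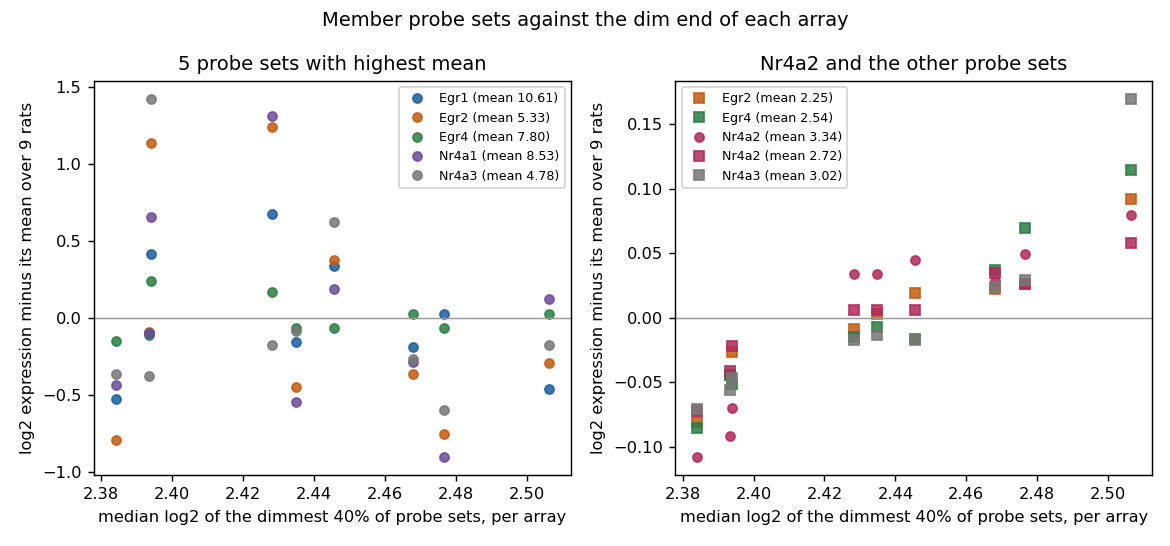
Each probe set's log2 expression minus its mean over 9 rats (vertical axes, different scales) against the median log2 of the dimmest 40% of probe sets on the same array (horizontal axes), 1 point per rat. In the right panel Nr4a2 (r = 0.904) and the 4 other probe sets follow the dim end of the array, and in the left panel the 5 brighter ones do not.

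The first comparison set the members against each other. Egr2 and Nr4a1 went together most closely of the 15 pairs, with r = 0.932 (exact permutation p = 0.000146, n = 9) and rho = 0.933 (exact permutation p = 0.000750). The same pair gave r = 0.953 in rats 1 to 7 (exact permutation p = 0.00595, n = 7) and r = 0.813 without rats 7 and 9, whose Egr2 lay farthest from its median (exact permutation p = 0.0256, n = 7). Among the 9519 probe sets of the fit on Egr2, Nr4a1 ranked 6 from the highest positive r. In the fit on Nr4a1, Egr2 ranked 3 in the same way. The larger of the pair's adjusted p-values was 0.153, so the pair did not pass.

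Egr1 and Egr2 gave r = 0.865 (exact permutation p = 0.00298, n = 9) and rho = 0.767 (exact permutation p = 0.0214). Within rats 1 to 7 r was 0.834 (exact permutation p = 0.0575, n = 7), and without rats 7 and 9 it was 0.635 (exact permutation p = 0.119, n = 7). Egr1 and Nr4a1 gave r = 0.703 (exact permutation p = 0.0335, n = 9) and rho = 0.583 (exact permutation p = 0.108). In rats 1 to 7 the r of Egr1 and Nr4a1 was 0.651 (exact permutation p = 0.150, n = 7). Without rats 7 and 9, whose Egr1 lay farthest from its median, it was 0.094. Leaving out extreme rats also narrows the range, so this fall cannot show that the relation rests on them.

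The flat Egr4 followed Egr2 at r = 0.828 (exact permutation p = 0.0101, n = 9) and Nr4a1 at r = 0.769 (exact permutation p = 0.0161, n = 9), with rho = 0.733 for both. Within rats 1 to 7 these were 0.828 and 0.809. Without rats 7 and 9 they were 0.190 and 0.272. The r of Egr1 with Egr4 was 0.658 in 9 rats (exact permutation p = 0.0543). It was 0.709 in rats 1 to 7 and -0.0130 without rats 7 and 9. These relations were weak without those 2 rats, but leaving out extremes narrows the range, so what they rest on is not shown.

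Nr4a3 gave r between 0.489 and 0.678 with Egr1, Egr2, Egr4 and Nr4a1, and between 0.0647 and 0.497 in rats 1 to 7. Its highest, with Egr2, was r = 0.678 (exact permutation p = 0.0359, n = 9) with rho = 0.569 (exact permutation p = 0.115), and 0.430 in rats 1 to 7. Nr4a2, at the dim end, gave r between -0.164 and 0.133 with the other members. Of the 15 pairs, 6 had an unadjusted limma p under 0.05 in both directions, beside 12.7%, 12.8%, 6.18%, 7.22%, 8.55% and 26.1% of all probe sets in the fits on Egr1, Egr2, Egr4, Nr4a1, Nr4a2 and Nr4a3. None of the 15 passed after Benjamini-Hochberg adjustment with limma in 9 rats, 1 did without rat 7 (Egr2 with Nr4a3, where 4.63% and 8.93% of all probe sets passed in the fits on them), and 9.29% of probe sets passed in the fit on Nr4a3, 0.0105% in the fit on Egr2 and 0% in the other 4.

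**Figure D3:**
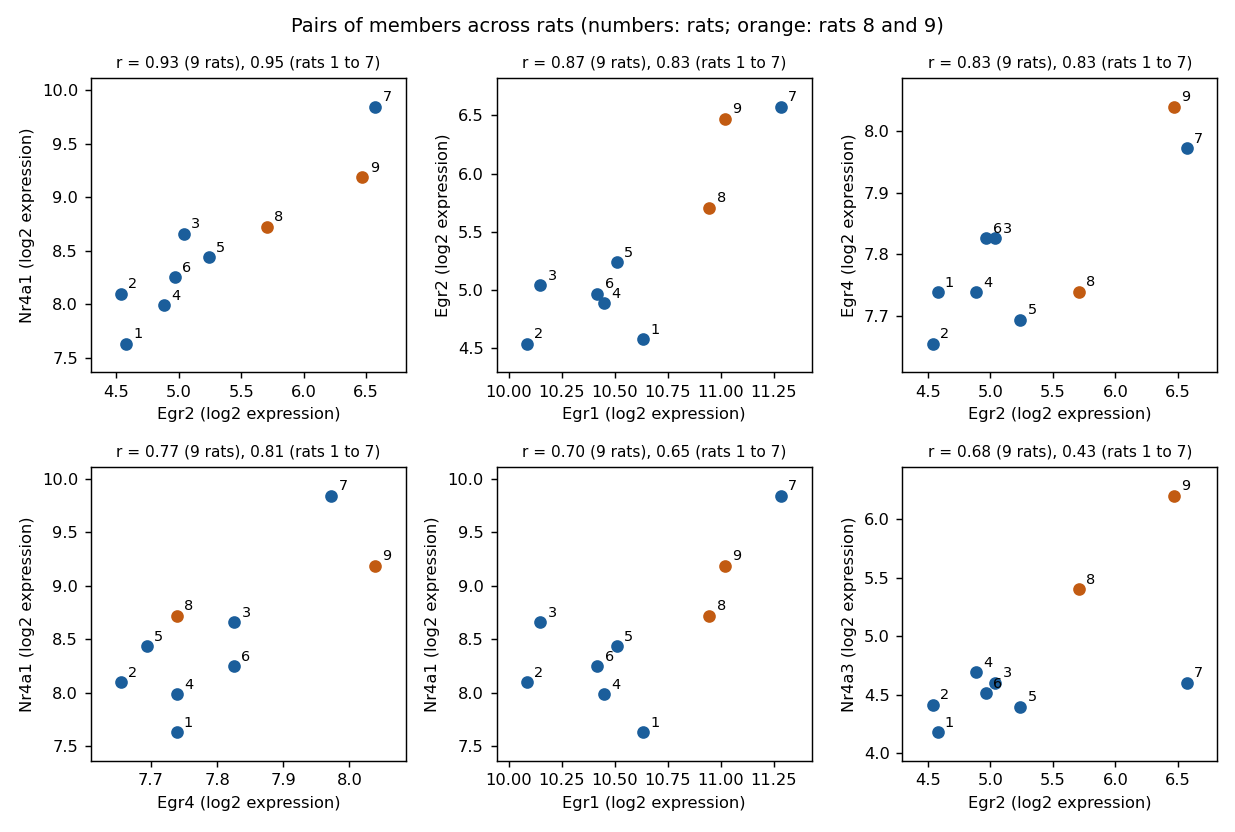
Log2 expression of 1 member against another for 6 pairs, 1 point per rat with its number, rats 8 and 9 in orange. Egr2 and Nr4a1 (r = 0.93 in 9 rats and 0.95 in rats 1 to 7) rise together. Egr4 gave r = 0.83 with Egr2 and 0.77 with Nr4a1 in 9 rats, and 0.83 and 0.81 in rats 1 to 7. Rats 7 and 9 hold the 2 highest values of Egr2, Egr4 and Nr4a1.

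The second comparison asked whether other genes that neurons induce rapidly followed the members. Of 38 such genes listed, 32 were on the array and 20 passed the filter on dim probe sets. The list was chosen with earlier results of these arrays known, and it does not include the members. The counts below use the unadjusted limma p under 0.05, since 0 of the 20 passed after adjustment in the fits on Egr1, Egr2, Egr4 and Nr4a1 over 9 rats. Without rat 7, 5 of the 20 passed on Egr2, beside 4.63% of all probe sets, and 1 on Nr4a1, beside 0.0105%. Without rat 8, 1 of the 20 passed on Egr4, beside 0.42%. With array quality weights 5 passed on Egr2, beside 3.93%.

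On Egr2, 13 of 20 had a positive slope at that p and 0 a negative one, beside 5.08% of all probe sets with a positive and 7.71% with a negative slope, and the median r was 0.747 against -0.267 over all genes. On Nr4a1, 12 of 20 had a positive slope and 0 a negative one, beside 2.99% and 4.22% of probe sets, with a median r of 0.690 against -0.211. On Egr4, 11 of 20 had a positive slope and 0 a negative one, beside 2.21% and 3.97%, with a median r of 0.647 against -0.179. On Egr1 it was 7 of 20 and 0, beside 4.36% and 8.36%, with a median r of 0.547 against -0.249.

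In rats 1 to 7 the counts with a positive slope were 10 on Egr2, 9 on Nr4a1, 10 on Egr4 and 4 on Egr1, beside 4.57%, 4%, 3.67% and 4.42% of probe sets. Leaving out the 2 rats with the most extreme level of that member gave 5, 6, 3 and 1. Beside these, 812, 693, 705 and 457 of 9519 probe sets had a positive slope, so the 1 on Egr1 is no result about the list. There 1 of the 20 had a negative slope on Egr2 and 1 on Egr1, beside 1000 and 676 of 9519 probe sets, and 0 on Nr4a1 and Egr4. On Nr4a3, 7 of 20 had a positive slope, beside 9.5% of probe sets. After adjustment 2 of 20 passed on Nr4a3, beside 9.29% of probe sets, which is no result about the list. With a term for rats 8 and 9, 0 of 9519 probe sets passed in the fit on Nr4a3.

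Arc, an effector at synapses, followed Nr4a1 at r = 0.942 in 9 rats and 0.947 in rats 1 to 7. Its log2 level ran from 7.97 through a median of 9.12 to 9.98 in rat 7. Junb, a subunit of the AP-1 transcription factor, gave r = 0.936 with Egr2 and 0.899 with Nr4a1, against 0.894 and 0.923 in rats 1 to 7, and ran from 4.32 through a median of 5.55 to 7.53 in rat 9. Fos, another AP-1 subunit, gave r = 0.835 with Egr2, and 0.978 in rats 1 to 7.

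Dusp6, a phosphatase that switches off the kinase ERK, gave r = 0.919 with Egr2, and 0.976 in rats 1 to 7, through the brightest of its 3 probe sets. The other 2 gave 0.483 and 0.341 with Egr2. Fos and Dusp6 were the only probe sets that passed in the fit on Egr2 once a term for rats 8 and 9 was added, with limma adjusted p of 0.0160 and 0.0308 (0.021% of the 9519 probe sets), and they were called by that alternative, not by the fit on 9 rats. In the fit on 9 rats without that term 1 probe set passed, 1 of 2 of Map1b, a microtubule protein (r = 0.961, limma adjusted p = 0.0226), whose brighter probe set gave r = -0.167.

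The 13 delayed activity-induced genes that were kept gave a median r of 0.0690 with Egr1, and 1 had a positive slope at an unadjusted p under 0.05 on Egr1, beside the 4.36% of all probe sets and the all-gene median r of -0.249. That gene was Bdnf, a neurotrophin (r = 0.606, limma adjusted p = 0.388), with r = 0.383 in rats 1 to 7 and r = -0.244 through its dimmer probe set. Homer1, also on the delayed list, gave r = 0.127 with Egr1 through the brightest of its 5 probe sets. Through the other 4, from brighter to dimmer, r was 0.420, 0.383, 0.698 and 0.710, so its place depends on the probe set. Of 16 kinases and transcription factors that induce such genes, 3 had a positive slope on Egr1, namely Mef2d, Camk2a and Prkaca, beside 4.36% of probe sets, and 3 on Nr4a1, namely Camk2a, Prkaca and Crtc2, beside 2.99%. The list's median r was 0.158 on Egr1 and -0.00651 on Nr4a1. Camk2a is also one of the excitatory markers. Of 7 partners and corepressors, Nab1, a corepressor of Egr proteins, had a positive slope on Egr1 (r = 0.635, 0.455 in rats 1 to 7, limma adjusted p = 0.369). Of 7 known targets in neurons, Syn1, a synaptic vesicle protein, did (r = 0.629, 0.460 in rats 1 to 7, limma adjusted p = 0.388). Both are counts of 1 beside 4.36% of probe sets, which is no result about either list.

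**Figure D4:**
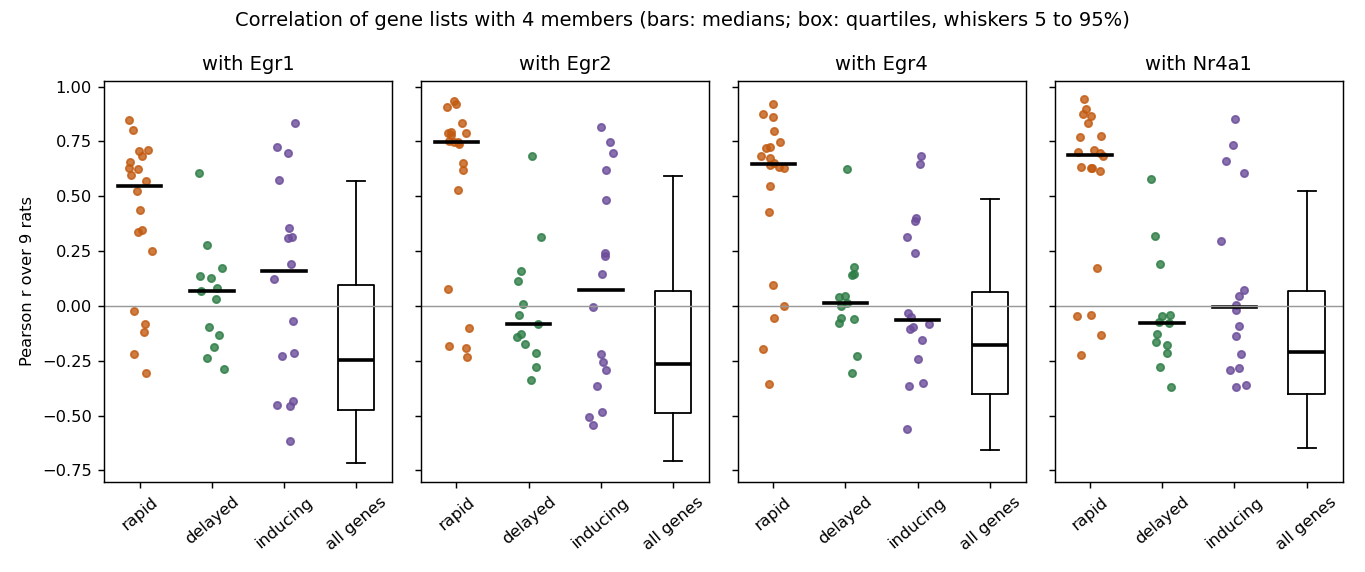
Pearson r over 9 rats (vertical axis) of the kept genes of 3 lists with the level of Egr1, Egr2, Egr4 and Nr4a1, 1 point per gene with a bar at the list's median, and of all genes as a box from the lower to the upper quartile with whiskers at the percentiles given in its title. The rapid list had medians of 0.547, 0.747, 0.647 and 0.690, above those of all genes.

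Of the markers of cortical excitatory neurons, Slc17a7 and Camk2a had positive slopes on Egr1, Egr2, Egr4 and Nr4a1, and Nrgn was not called. Of 6 listed, 4 were on the array and 3 were kept, and 2 of them had a positive slope at an unadjusted p under 0.05 on each of Egr1, Egr2, Egr4 and Nr4a1, beside 4.36%, 5.08%, 2.21% and 2.99% of probe sets. None passed after adjustment. Nrgn, a calmodulin-binding protein of dendrites, gave r of 0.0405, -0.0346, -0.440 and 0.0556 with them, and on Nr4a2 0 of 3 were called. Slc17a7, a vesicular glutamate transporter, gave r = 0.919 with Egr2 (0.900 in rats 1 to 7), and 0.775 through its dimmer probe set. Camk2a, a kinase of excitatory synapses, gave 0.853 with Nr4a1 (0.884 in rats 1 to 7) through the brightest of its 3 probe sets. The other 2, from brighter to dimmer, gave 0.448 and 0.908, against 0.343 and 0.899 in rats 1 to 7. The mean of the 3 markers ran from 11.07 in rat 1 to 12.11 in rat 7 and gave r = 0.907 with Egr2. Of 6 inhibitory neuron markers, 1 had a positive slope and 0 a negative one at that p on Egr1, and the same on Egr2. Their median r was -0.191 with Egr1 and -0.362 with Egr2.

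Markers of glia and vessels had mostly negative r with Egr1, as did all genes, whose median r was -0.249. At an unadjusted p under 0.05, 2 of 4 microglial, 1 of 6 astrocyte, 1 of 5 oligodendrocyte and 1 of 4 endothelial genes had a negative slope on Egr1. This stood beside 8.36% of probe sets, and none passed after adjustment. The microglial genes Csf1r and C1qa, a receptor and a complement subunit, gave r = -0.794 and -0.785, against -0.837 and -0.806 in rats 1 to 7. The median r with Egr1 was -0.652 for microglia, -0.364 for astrocytes and -0.510 for endothelium. For oligodendrocytes it was -0.0355, above that of all genes, and 2 of their 5 genes had a positive r. The mean microglial level ran from 5.90 in rat 7 to 6.70 in rat 3, and the mean astrocytic level from 8.42 in rat 7 to 9.00 in rat 6. Of the 5 striatal markers on the array only Ppp1r1b was kept, and of the 3 choroid plexus markers only 1. The part of these markers in the members' relations was not tested. In this tissue, fewer cells of a type and less RNA per cell cannot be told apart.

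The first principal component gave r = 0.894 with Nr4a3 in 9 rats and 0.374 in rats 1 to 7. In rats 1 to 7 it gave r = 0.905 with Egr4, 0.894 with Nr4a1 and 0.853 with Egr2, and its part in their relations was not tested.

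The genes whose levels were most like each member over the 9 rats, 1 probe set per gene, are given as a description. For Egr1 they were Hnrnpu, Cspg5, Atp6v0a1 and Hmga1, with r of 0.948, 0.912, 0.912 and 0.890. For Egr2 they were Arhgap44, Junb, Cspg5 and Rala, with r of 0.961, 0.936, 0.935 and 0.934. For Nr4a1 they were Arc, Chrm4, Egr2 and Arhgap44, with r of 0.942, 0.940, 0.932 and 0.932. For Egr4 they were Atrx, Fosb, Arhgap44 and C1galt1, with r of 0.931, 0.922, 0.917 and 0.880.

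For Nr4a3 the nearest were Pcdha13, Pi4k2a, Fgfr1 and Tef, with r of 0.966, 0.964, 0.960 and 0.960, which were 0.181, 0.629, 0.236 and -0.0194 in rats 1 to 7. The nearest to Nr4a2 were Adm, Srd5a3, Hyal2 and Samd1, whose ranges over the 9 rats were 0.14, 0.04, 0.09 and 0.25 on the log2 scale, so these likenesses lie at the dim end. The lowest r was -0.969 for Htra1 with Egr1, -0.962 for Atp5mc3 with Egr2, -0.938 for Zfp385b with Egr4, -0.959 for Ppil1 with Nr4a1, -0.901 for Uqcrh with Nr4a2 and -0.989 for Ptp4a3 with Nr4a3.

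The third comparison set the members against behaviour. Across 24 relations none passed after adjustment with limma over the 9520 probe sets, and in no fit did any probe set pass (0%). At an unadjusted p under 0.05, 1 member was called for startle, Egr1, beside 13.2% of probe sets, and 0 for locomotion, plus maze and sugar feeding, beside 1.96%, 2.99% and 1.4%. A member count near these shares is no result about the members.

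Egr1 was lower in rats that startled more, with r = -0.613 (exact permutation p = 0.0803, n = 9), rho = -0.667 (exact permutation p = 0.0589) and a slope of -0.25 ± 0.11 log2 per SD of startle (SE, limma unadjusted p = 0.0477, adjusted p = 0.372). In rats 1 to 7 r was -0.522 (exact permutation p = 0.230, n = 7). Egr2 gave r = -0.587 with startle (exact permutation p = 0.0970, n = 9) and -0.583 in rats 1 to 7. Nr4a1 gave -0.486, Nr4a3 -0.430 and Egr4 -0.0888.

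For the plus maze, Egr2 gave r = -0.563 (exact permutation p = 0.0914, n = 9) and rho = -0.689 (exact permutation p = 0.0476, limma adjusted p = 0.999), the only rank correlation of the 24 with a raw p under 0.05. Its r in rats 1 to 7 was -0.472. Egr1, Egr4, Nr4a1 and Nr4a3 gave r of -0.444, -0.449, -0.494 and -0.412. For Egr1 it became 0.0776 without rats 2 and 6, which had the 2 most extreme plus maze values.

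Locomotion gave r of 0.200 with Egr1, -0.221 with Egr2, -0.318 with Egr4, -0.475 with Nr4a1 and 0.0679 with Nr4a3. For Nr4a3 it was -0.722 in rats 1 to 7 (exact permutation p = 0.0690, n = 7), the opposite sign. Sugar feeding gave r between -0.304, with Nr4a1, and 0.216, with Nr4a3. Nr4a2 gave r between -0.209 and 0.315 with the 4 behaviours.

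The rapid list gave 3 of 20 negative slopes and 1 positive at an unadjusted p under 0.05 for startle, beside 4.34% and 8.9% of probe sets, and 3 negative and 0 positive for locomotion, beside 1.34% with a negative slope, and median r of -0.284 and -0.307 against 0.168 and -0.0923 over all genes. Over rats 1 to 7 the negative counts were 2 for startle and 7 for locomotion, beside 5.59% and 2.55% of probe sets. For the plus maze it gave 1 of 20 and for sugar feeding 1, beside 0.546% and 0.63%. None passed after adjustment.

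**Figure D5:**
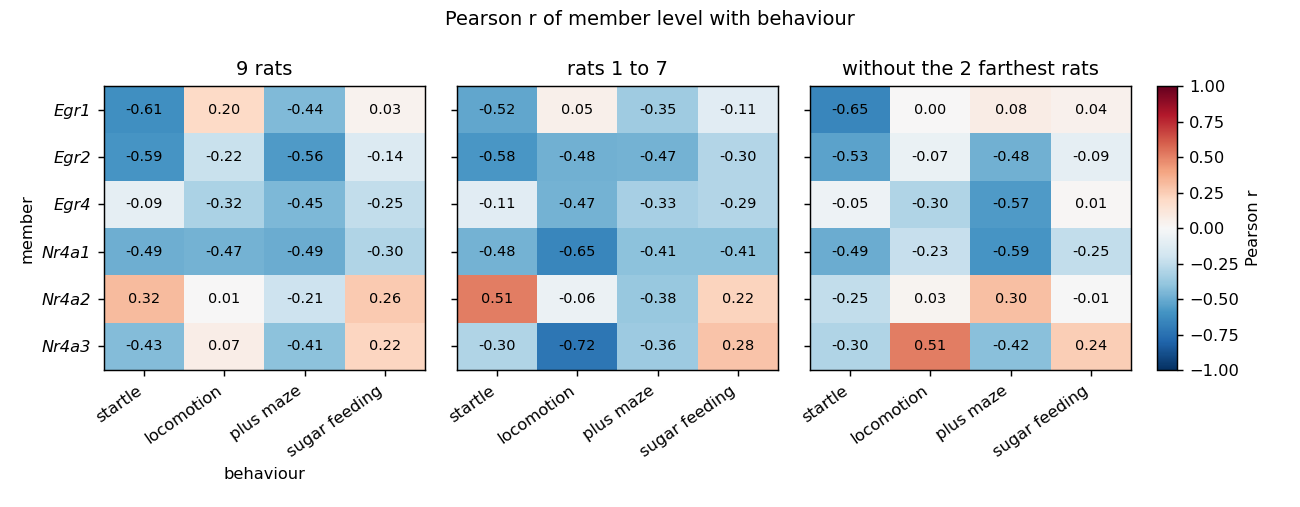
Pearson r of each member (rows) with each behaviour (columns), printed and coloured from -1 to 1, in 9 rats, in rats 1 to 7 and with the 2 rats of most extreme behaviour left out. Egr1 and Egr2 gave -0.61 and -0.59 with startle in 9 rats, and the sign of Nr4a3 with locomotion changed between panels.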

How the data were processed

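Prefrontal cortex RNA of 9 rats was measured on 1 Affymetrix array each. Per the submitters' processing notes, the authors ran GCRMA under R 2.6.2, and the table they deposited holds log2 values of 1 number per probe set and array. GCRMA models the background from each probe's sequence, which presses dim probe sets towards a common floor. Its settings were not found in the sources. Of the kept probe sets, 47.0% held tied values.

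Of 15923 probe sets, 57 controls and the lowest 40% of the other 15866 by mean (below 3.22) were left out, which kept 9520. The platform annotation gave 12783 probe sets 1 symbol, 312 several and 2771 none, and only the first kind was named. Each gene is represented by its probe set with the highest mean. That rule kept 1 probe set for each of the 6 members and left out 4.

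limma 3.58.1 in R 4.3.3 (lmFit, eBayes, 7 residual degrees of freedom) fitted a slope per SD of each behaviour, or of each member's level, two-sided, with Benjamini-Hochberg adjustment over all kept probe sets (9519 in fits on a member) at 0.05. Single correlations got two-sided exact permutation tests from the 362880 pairings of 9 rats, or 5040 of 7, with Python 3.11.15, numpy 2.4.6, pandas 2.3.3 and scipy 1.17.1, and figures were drawn with matplotlib 3.10.9. The members, gene lists and rule for named genes were chosen with earlier results of these data known. The rule names, for each member, the 4 genes of highest r and the 1 of lowest, leaving out provisional symbols (LOC, RGD, MGC and AABR), and up to 4 genes per list by smallest p in the fits on Egr1 and on Nr4a1. Map1b, Homer1, and values on Egr2 for listed genes, were chosen after their values were seen.

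On simulated data for startle with 200 of 9520 probe sets changed, slopes of 0.25, 0.5 and 1 log2 per SD were recovered in 28.4%, 80.8% and 97.5% of cases. The mean number of false calls per run, over 5 runs, was 6.4, 6 and 2. With 9 arrays, precision is limited by their number. Alternatives tried were every probe set above or below the filter, a filter at 70%, a second quantile normalization, a robust fit with an intensity trend, ranks, a term for rats 8 and 9, the 7 other rats alone, leaving out the 2 farthest rats, array quality weights, all probe sets of a gene, and the fits that omit 1 rat at a time.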

Additional observations from a re-analysis of the deposited data

Results flagged for a closer look

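The second probe set of Nr4a3, which the filter left out, had 1 rat far from the others. Rat 3 lay at 3.19 on the log2 scale and the other 8 rats between 2.95 and 3.05, so that the gap took 0.585 of the whole range, above the critical value of Dixon's test for 9 values. Rat 3 also had the highest median of dim probe sets of the 9 arrays, 2.51. Chance passes this limit in about 1 of 20 sets of values, and 10 member probe sets were examined.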

How the results depend on the processing

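No member passed for any behaviour under any alternative run. Of the 15 pairs of members, 0 passed in the fit on 9 rats. With array quality weights 1 passed, Egr2 with Nr4a3, beside 374 and 2619 of 9519 probe sets in the fits on them. The estimation of these weights stopped before its tolerance in the fit on Nr4a3. Leaving out each rat in turn gave 0 to 1. The 1 was Egr2 with Nr4a3 without rat 7, where 4.63% and 8.93% of all probe sets passed. No rapid or delayed gene passed in the fit on Egr1 under any alternative. At an unadjusted p under 0.05 the rapid list's positive count on Egr1, 7 of 20, was 4 with the filter at 70%, with ranks, with a term for rats 8 and 9 and in rats 1 to 7, and 1 without the 2 farthest rats. Beside these, 240 of 4759 probe sets had a positive slope with the filter at 70%. In the other settings, in that order, 352, 392, 421 and 457 of 9519 did. On Egr2 (13) it was 6 with the filter at 70% and 5 without the 2 farthest rats, on Egr4 (11) 4 and 3, and on Nr4a1 (12) 7 and 6. Beside these, the filter at 70% gave 283 of 4760 probe sets on Egr2, and 85 and 179 of 4759 on Egr4 and Nr4a1. Without the 2 farthest rats 812, 705 and 693 of 9519 had a positive slope on Egr2, Egr4 and Nr4a1. The filter at 70% left 9 of the 20 genes. Leaving out each rat in turn gave 2 to 8 on Egr1, 10 to 13 on Egr2, 7 to 10 on Egr4 and 8 to 12 on Nr4a1. Of all 9519 probe sets, 305 to 715, 340 to 884, 152 to 564 and 209 to 719 had a positive slope there. Without rat 7 the list's counts were 2, 10, 7 and 8, beside 715, 884, 313 and 719 of 9519 probe sets. There 1 gene of the list had a negative slope on Egr1, beside 1230 of 9519. The counts on Egr1 are then near the share of all probe sets. The count on Egr1 was 3 without rat 2 and 4 without rat 4, beside 400 and 348 of 9519 probe sets. After adjustment, 0 of the 20 passed on Egr2 in the fit on 9 rats. With the filter at 70%, a second quantile normalization or a term for rats 8 and 9, 2 passed. Beside these, 7 of 4760, 13 of 9519 and 2 of 9519 probe sets passed. With array quality weights or without rat 7, 5 passed, where 3.93% and 4.63% of all probe sets did. On Nr4a1 1 passed with the filter at 70%, with ranks or without rat 7, beside 1 of all probe sets tested each time. On Egr4 1 passed without rat 8, beside 40 of 9519 probe sets.

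Among single relations the sign turned in these cases, whose cause was not tested. With a term for rats 8 and 9, startle gave 0.129 with Egr4 and 0.0975 with Nr4a3, locomotion gave -0.607 with Nr4a3, and sugar feeding gave -0.122 with Egr1 and -0.0467 with Nr4a3. In rats 1 to 7, r was -0.722 for Nr4a3 with locomotion, -0.112 for Egr1 with sugar feeding and -0.0194 for Nr4a3 with Tef. Without the 2 farthest rats r was 0.0776 for Egr1 with the plus maze, 0.00793 for Egr4 with sugar feeding, -0.0130 for Egr1 with Egr4, -0.132 for Egr1 with Fos, -0.513 for Egr1 with Dusp1 and -0.0194 for Nr4a3 with Tef. Leaving out each rat in turn, r ran from -0.233 to 0.0851 for Egr4 with startle. It ran from -0.0255 to 0.519 for Egr1, from -0.347 to 0.0733 for Egr2 and from -0.0837 to 0.496 for Nr4a3 with locomotion. It ran from -0.0887 to 0.273 for Egr1 and from -0.242 to 0.0678 for Egr2 with sugar feeding, and from -0.0146 to 0.616 for Egr1 with Dusp1. For Nr4a2, at the dim end, the sign turned with startle after a second quantile normalization (-0.371) and without the 2 farthest rats (-0.247), where it was also 0.297 with the plus maze and -0.00726 with sugar feeding. With locomotion it was -0.0598 in rats 1 to 7. With Egr2 it was 0.393 after quantile normalization, 0.0669 with ranks, 0.0344 with a term for rats 8 and 9, 0.185 in rats 1 to 7 and 0.208 without the 2 farthest rats. Nr4a1 with Nr4a2 gave -0.00837 with ranks and -0.0148 without the 2 farthest rats, and Nr4a2 with Nr4a3 gave 0.122 with ranks and 0.288 in rats 1 to 7. Leaving out each rat in turn, Nr4a2 ran from -0.273 to 0.291 with locomotion, -0.388 to 0.230 with the plus maze, -0.222 to 0.381 with Egr1, -0.346 to 0.236 with Egr2, -0.162 to 0.586 with Egr4, -0.193 to 0.168 with Nr4a1 and -0.366 to 0.311 with Nr4a3. The filter at 70% kept 3 of the 6 members. No paired analysis was possible because the rats form 1 group.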
